A study of Mus musculus with 30 samples.

Results

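The early growth response (Egr) factors Egr1, Egr2 and Egr3 and the corepressors that bind them, Nab1 and Nab2, were followed through 30 bulk mRNA libraries of a mouse fibroblast line. The 5 genes were picked by symbol in the GENCODE M21 annotation, out of 36047 genes that the deposited transcript tables could be summed to. The rule goes by symbol, but the genes were chosen with earlier results of these data known. Together they have 22 annotated transcripts, and the level of a gene is the sum over its transcripts. Egr1 (ENSMUSG00000038418.7) lies on chromosome 18 from 34859823 to 34864984 on the plus strand of mm10. Egr2 (ENSMUSG00000037868.15) lies on chromosome 10 from 67535475 to 67542188 on the plus strand, and Egr3 (ENSMUSG00000033730.4) on chromosome 14 from 70077203 to 70082614 on the plus strand. Nab1 (ENSMUSG00000002881.14) lies on chromosome 1 from 52457294 to 52500679 on the minus strand, and Nab2 (ENSMUSG00000025402.12) on chromosome 10 from 127660918 to 127668568 on the minus strand.

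The cells were NIH3T3-CG, a derivative of the mouse embryonic fibroblast line NIH3T3, and the series title concerns variability in the response to Hedgehog signals. Libraries fell into 10 groups of 3 in 4 experiments. In the first, all cells were transduced with Prrx1, a homeobox factor of mesenchyme, and were grown with doxycycline, the drug that switches on inducible constructs, or without it. In the second, cells received a plasmid for Prrx1, a plasmid for Snai1 (a zinc-finger repressor of epithelial genes) or a control plasmid. In the third, they received a plasmid for Egr1, a plasmid for Jun (an AP-1 subunit) or a control plasmid. In the fourth, they received a plasmid for Srebf2, the activator of cholesterol synthesis genes, or a control plasmid. Prrx1 and Snai1 share their 3 control libraries, as do Egr1 and Jun, so the comparisons within each pair are not independent. The labels give no promoter, dose, time after delivery or share of cells that took up a plasmid, and they do not say whether replicates came from separate cultures. The p-values therefore rest on how far these libraries scatter, and that scatter may be technical.

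Totals ran from 7996355 to 37068611 estimated counts per library, lowest in the transduced cells (7996355 to 17129632) and highest with the Egr1 plasmid (29452035 to 37068611). The delivered factor rose in each experiment: Prrx1 was 3.85-fold higher with doxycycline and 27.5-fold higher with its plasmid, Snai1 123-fold, Jun 22.1-fold and Srebf2 4.19-fold higher (edgeR, adjusted p of the change under 0.05 in each). The 12 fibroblast markers summed to between 6490 and 11900 TPM in a library, the kallisto unit that scales counts by transcript length and library depth. Fap, a fibroblast protease, was under 1 TPM in every library, and the matrix gene Lum was under 1 TPM in the transduced cells. The 10 Schwann cell markers summed to 27.7 to 113 TPM, with the defining Sox10 and S100b under 1 TPM throughout, and the 10 leukocyte markers to 4.37 to 12.8 TPM, with Cd3e, Il2 and Fasl under 1 TPM. Neural markers stayed between 4.28 and 27.6 TPM except for 66.1 TPM in 1 control library of the Egr1 and Jun experiment. The 8 epithelial markers had a median sum of 1.97 TPM but reached 7.89, 22.9 and 191 TPM in the 3 libraries with the Egr1 plasmid, against 7.59 to 10.2 TPM in their controls, with Cdh1 and Cldn4 under 1 TPM in all of them. The part of these cells in the results below was not tested.

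Egr proteins are zinc-finger transcription factors that are switched on within minutes of growth factor or stress signals, when the ERK kinases act on serum response factor (SRF) and its ternary complex partners at CArG boxes of the Egr promoters. They bind short GC-rich sites and can activate or repress the genes there. Nab1 and Nab2 dock onto an inhibitory domain of the Egr factors and recruit the NuRD chromatin complex, and Nab2 is itself known as an Egr-induced gene that closes a negative feedback loop. In fibroblasts, Egr1 is the classic serum-induced member, whereas Egr2 is best known from myelinating Schwann cells and Egr3 from muscle spindles and lymphocytes.

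RefSeq promoter windows (GRCm38.p6, from 250 bases before to 50 after a start) matched 3 of the 5 genes by symbol: 5 windows for Egr2, 1 for Nab1 and 1 for Nab2. They were searched on both strands for the Egr site GCGNGGGCG, for the form GCGTGGGCG that it contains, and for the CArG box. The Nab1 window, chr1:52500399-52500698 on the minus strand, held 3 matches of GCGNGGGCG, of which 2 were also GCGTGGGCG. They are shown because the Nab1 transcripts that begin around this stretch differed between experiments. Each line is written 5′ to 3′ on the strand of Nab1, with the match in capitals. The printed line with the distal match, which is on the opposite strand, spans chr1:52500571-52500599. The line with the middle match spans chr1:52500539-52500567 and that with the proximal match chr1:52500468-52500496.
Nab1 distal match: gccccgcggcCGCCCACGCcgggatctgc
Nab1 middle match: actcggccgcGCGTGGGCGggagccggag
Nab1 proximal match: gcggggcgggGCGGGGGCGgcggaggtgg
The distal match lies 141 to 133 bases before the RefSeq start, the middle one 109 to 101 and the proximal one 38 to 30, and all 3 lie inside the longer first exon that GENCODE gives to transcript Nab1-201. Among 32851 windows of the same length, 5.55% held GCGNGGGCG and 0.612% held GCGTGGGCG. The windows of Nab2 and Egr2 held neither.

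CArG boxes were found in 4 of the 5 overlapping or neighbouring Egr2 windows, and they are shown because SRF sites are the known entry point of growth signals into this family. The printed line with the box nearest the main Egr2 start at 67537869, 72 to 63 bases before it, spans chr10:67537787-67537816. The line with the other box, 72 to 63 bases before a start at 67537566, spans chr10:67537484-67537513. Both are on the plus strand, with the box in capitals.
Egr2 main start: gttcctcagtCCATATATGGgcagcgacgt
Egr2 upstream start: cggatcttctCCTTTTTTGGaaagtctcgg
Of all windows, 1.63% held a CArG box, and those of Nab1 and Nab2 held none. A match describes letters in a window and is no measure of binding.

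Egr1 ranged most widely and Egr2 was the scarcest of the 5 genes. Mean Egr1 levels ran, in TPM, from 29.6 ± 2.71 (SD, n = 3 here and below) in transduced cells with doxycycline and 47.5 ± 3.69 without it, through 70 ± 9.15 in the control of Egr1 and Jun, to 141 ± 27.4 in the control of Srebf2. With the Egr1 plasmid the level was 849 ± 115 TPM. The groups with Snai1 (97.4 ± 19), Jun (102 ± 12.7), Prrx1 (110 ± 32.4) and Srebf2 (124 ± 11.5 TPM) and the control of Prrx1 and Snai1 (140 ± 58 TPM) were neighbours in that order within their spread. In the last of these, single libraries held 75.1 to 187 TPM, the widest range of any group that did not receive Egr1.

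Egr3 means lay between 6.62 ± 0.543 TPM with doxycycline and 32.3 ± 0.732 TPM with the Snai1 plasmid. The transduced groups were lowest (the group without doxycycline had 7.53 ± 1.76 TPM), and the 8 transfected groups, at 22 to 32.3 TPM, formed a series whose neighbours did not differ beyond their spread. Egr2 means lay between 0.578 ± 0.515 TPM without doxycycline and 2.13 ± 0.766 TPM in the control of Srebf2, and single libraries ran from 0.138 to 2.96 TPM. At these levels, neighbours in the order of TPM did not differ beyond the spread of their libraries. In counts scaled by library size alone, the transduced groups were lowest, as given below.

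Of the corepressors, Nab2 was above Nab1 in TPM in each of the 8 transfected groups, and Nab1 was above Nab2 in both transduced groups. Nab2 means ran from 44.3 ± 5.59 TPM with doxycycline to 93 ± 4.82 TPM in the control of Srebf2. Nab1 means lay between 33.1 ± 1.83 and 42.8 ± 2.13 TPM in transfected cells, where neighbours in the order did not differ beyond their spread. In transduced cells they were 129 ± 19.8 TPM without doxycycline and 143 ± 20.8 TPM with it.

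**Figure D1:**
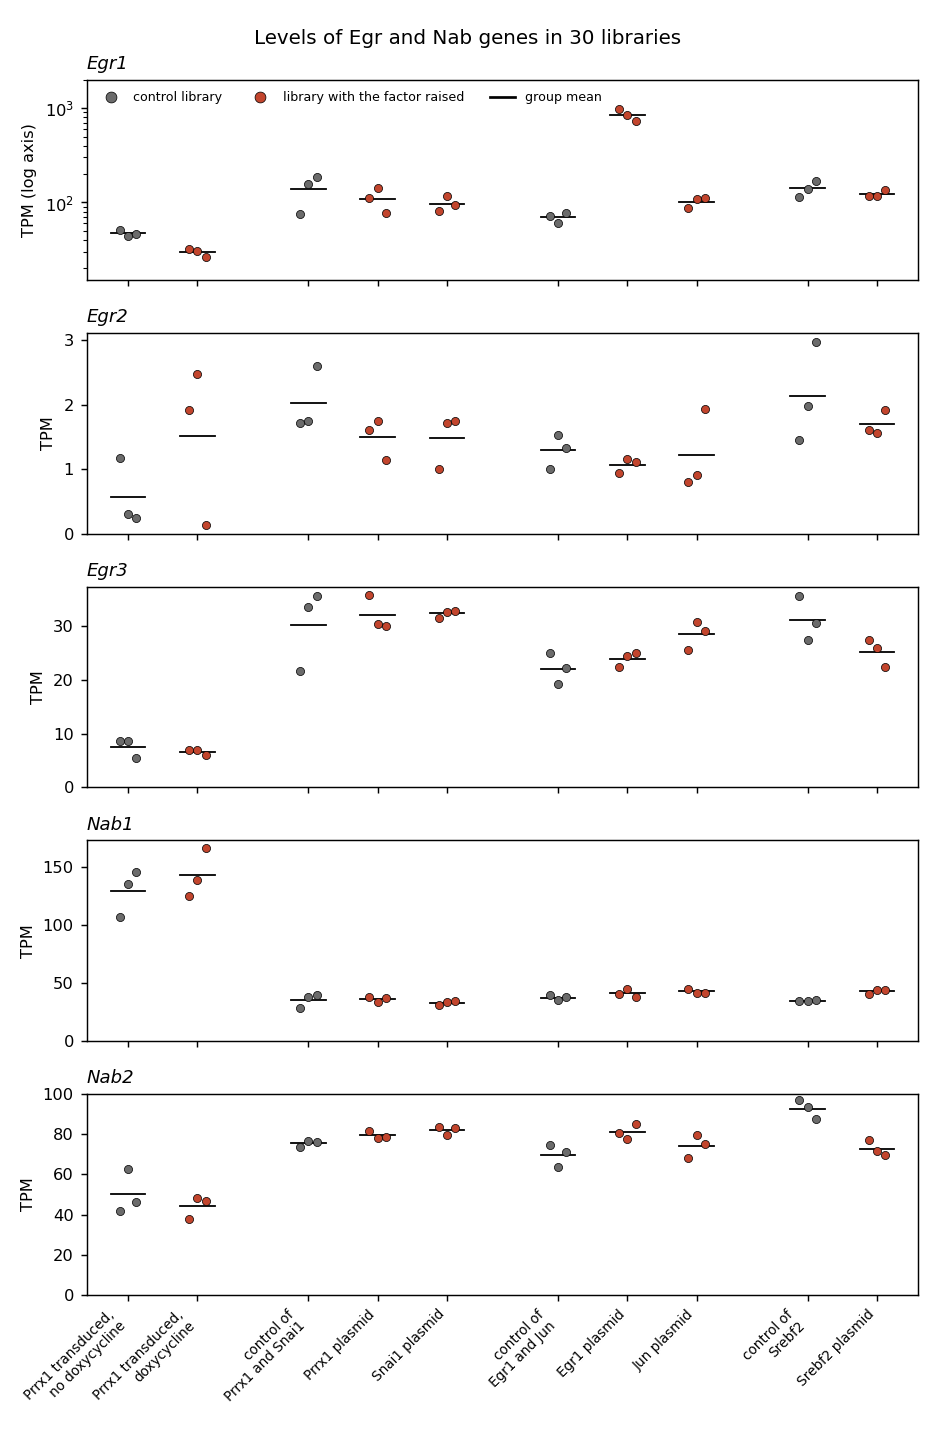
Level of each gene in TPM (vertical axes, logarithmic for Egr1 and linear from 0 for the others) in the 30 libraries, by group along the horizontal axis; points are libraries and bars are group means. Egr1 stands highest with its own plasmid (738 to 967 TPM), and the transduced groups at the left stand low for Egr1 and Egr3 and high for Nab1.

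In TPM, levels of 4 of the 5 genes were also apart between the transduced and the transfected experiments, in treated and control cells alike. Egr3 was at 5.5 to 8.56 TPM in the 6 transduced libraries (median 6.94) and at 19.1 to 35.7 TPM in the 24 transfected ones (median 28.2), a 4.07-fold higher median. Egr1 was at 26.6 to 51.5 TPM in transduced cells (median 38.1) and at 60.2 to 187 TPM in the 21 transfected libraries that did not receive Egr1 (median 112). Nab1 went the other way, with 107 to 166 TPM in transduced cells (median 137) and 28.3 to 44.6 TPM in transfected ones (median 37.8), a 3.62-fold higher median. Nab2 was at 37.9 to 62.5 TPM against 64 to 97.2 TPM. For these 4 genes no transduced library overlapped a transfected one in TPM, whereas Egr2 overlapped (0.138 to 2.48 against 0.807 to 2.96 TPM). In CPM, counts scaled by library size and not by transcript length, Egr2 was apart too. It was at 0.224 to 1.33 CPM in transduced and 1.53 to 4.88 CPM in transfected libraries, with all 30 scaled together. Its transduced values rest on 3 to 22.5 counts per library, and TPM gives counts on short transcripts more weight. These are levels across separate experiments without a test: the way of delivery, the cells, the sequencing depth and the experiment cannot be told apart. In bulk samples, a change in RNA per cell and a change in the number of cells that make it cannot be told apart either.

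With the Egr1 plasmid, Egr1 rose and no other member passed the test. Changes are from edgeR's quasi-likelihood test on counts across all genes, with Benjamini-Hochberg adjustment and a threshold of 0.05, and levels in these comparisons are in CPM, counts scaled by library size and not corrected for gene length. Egr1 was at 1970, 1730 and 1510 CPM in the 3 libraries that received it and at 189, 158 and 201 CPM in their controls. The groups were far from overlapping, and the log2 change was 3.25 ± 0.154 (SE), or 9.5-fold (adjusted p = 0.000394). The 1 member called, of 5 tested, is the delivered factor, and 0.325% of 14481 genes were called in this comparison (0.200% higher and 0.124% lower). Groups did not overlap for 15.7% of genes.

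The 2 other Egr genes were level with their controls in these libraries. Egr3 was at 43.5, 49.2 and 50.4 CPM with the Egr1 plasmid and at 57.3, 40.9 and 49.2 CPM in controls. The groups overlapped, and the log2 difference was -0.05 with a 95% interval of -0.32 to 0.22 (adjusted p = 0.932). Egr2 was near 2 CPM in all 6 libraries (1.82 to 2.26 against 1.78 to 2.18 CPM), and its log2 difference was 0.05 with a wide interval of -0.51 to 0.60.

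Nab2, the corepressor known as an Egr target, was at 118, 114 and 127 CPM with the Egr1 plasmid and at 123, 109 and 123 CPM in controls. The 2 sets of libraries interleaved. The log2 difference was 0.01, with an interval of -0.12 to 0.14 (edgeR, adjusted p = 0.97). Nab1 was at 105, 111 and 98.5 CPM against 108, 99.8 and 102 CPM, again interleaved, with a log2 difference of 0.02 and an interval of -0.08 to 0.13 (adjusted p = 0.921). For both corepressors the 95% interval of the bulk mean reached no further than 0.14 on the log2 scale in either direction. The bulk level of Egr1 transcripts was 9.5-fold higher. The interval sets no bound for the cells that took up the plasmid, because their share is not given. Protein was not measured. The sign of the small values of Egr2, Egr3, Nab1 and Nab2 turned when single libraries were left out.

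**Figure D2:**
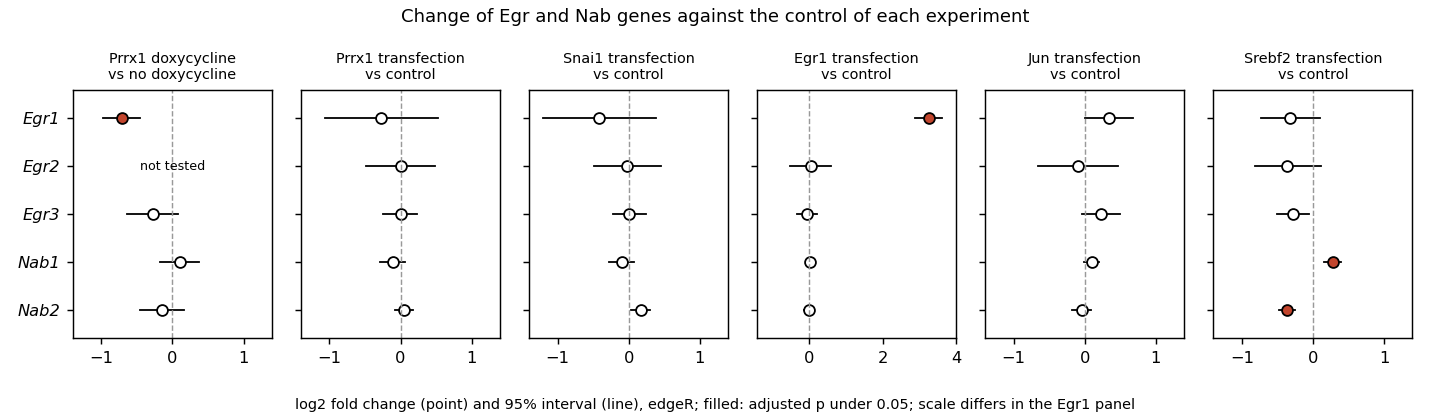
Log2 fold change of each gene against the control of its experiment (points) with its 95% interval (lines) from edgeR, one panel per comparison; filled points have an adjusted p under 0.05 and the Egr1 panel has a wider scale. The 4 filled points are Egr1 with doxycycline (-0.71), Egr1 with its plasmid (3.25), and Nab1 (0.28) and Nab2 (-0.37) with the Srebf2 plasmid.

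Egr1 has 2 annotated transcripts, which made it possible to ask where the added counts fell. Egr1-201 (4484 bases) starts with an exon of 1964 bases, from 34859823 to 34861786, and Egr1-202 (3036 bases) starts at 34861207 with exons of 127 and 417 bases. Both contain the same coding sequence, in 2 coding segments from 34861489 to 34861786 and from 34862465 to 34863765. They share 2978 of their 31-base words, while 1476 words are found only in Egr1-201 and 28 only in Egr1-202, and none of the words that set them apart occurs in another gene. The labels do not give the sequence of the plasmid, so counts from it and from the chromosome cannot be told apart where the sequence is shared.

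The added counts were assigned to Egr1-202. It was at 950, 817 and 714 TPM with the Egr1 plasmid and at 49.8, 40.7 and 56.1 TPM in controls. The log2 change in its counts was 3.92 ± 0.165 (SE), or 15.1-fold (edgeR over all 46611 transcripts tested, adjusted p = 0.000277), where 0.0215% of transcripts were called. Egr1-201, which alone carries the long first exon, was at 17.4, 24.9 and 24.1 TPM with the plasmid and at 21.8, 19.5 and 22.2 TPM in controls. These libraries overlapped, and the log2 change was -0.10 ± 0.161 (adjusted p = 1), turning to 0.04 without replicate 1 of the Egr1 plasmid. The share of the gene's counts given to Egr1-201 was 4.01% on average against 40% in controls, a difference of -36 percentage points, with no overlap between groups (exact permutation test, two-sided, p = 0.1, the smallest that 3 against 3 libraries can give). Counts of Egr1-201 averaged 2290 with the plasmid and 2293 in controls. The lower share thus restates the counts added to Egr1-202, which enter its total, and its test is no separate result.

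**Figure D3:**
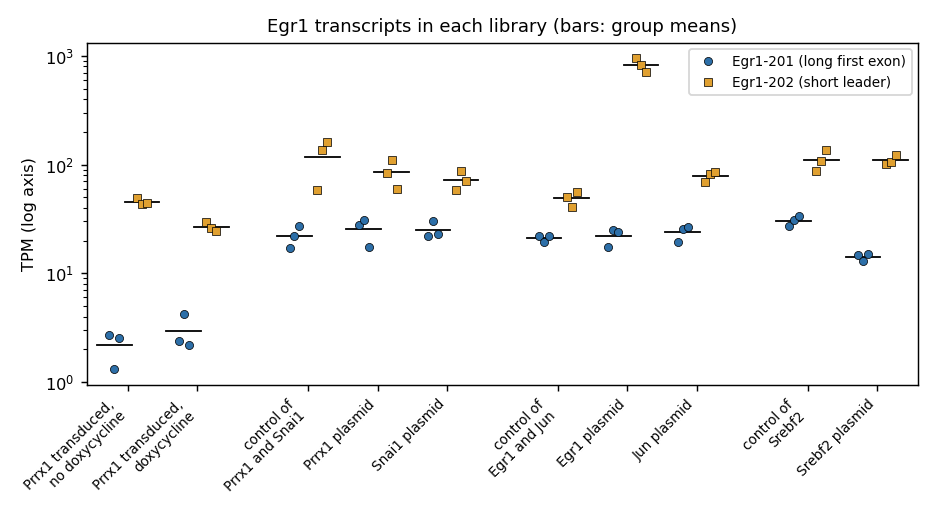
TPM of transcripts Egr1-201 (circles) and Egr1-202 (squares) on a logarithmic axis in each library, by group, with bars for group means. With the Egr1 plasmid Egr1-202 averages 826.8 TPM and Egr1-201 averages 22.11 TPM, next to 48.85 and 21.17 TPM in the controls.

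Egr1-201 was otherwise steady across the transfected cells, with means of 21.17 to 25.39 TPM in all groups of the first 2 plasmid experiments, whereas the Srebf2 experiment stood apart. There it was at 27.1, 31 and 33.5 TPM in controls and at 14.8, 12.9 and 14.9 TPM with the Srebf2 plasmid. The groups did not overlap, and the log2 change in counts was -1.14 ± 0.102 (edgeR, adjusted p = 0.0257), in a comparison where 0.766% of 36933 transcripts were called. The size held when any 1 library was left out (-1.21 to -1.06), but the adjusted p then ran from 0.0359 to 0.102 and passed the threshold only without replicate 3 of the controls. Egr1-202 did not pass the test there (109.5 ± 10.97 against 110.6 ± 24.2 TPM, log2 difference in counts -0.05, adjusted p = 0.936). In transduced cells Egr1-201 was at 1.31 to 4.21 TPM, below every transfected library (12.9 to 33.5 TPM), and held 4.4 to 19.6% of the counts of Egr1. How kallisto's split between transcripts varies is not in the files, and that part of the error is not covered by these tests.

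With the Jun plasmid, in the same experiment, no member passed the test. Jun libraries held 196, 246 and 254 CPM of Egr1 against 189, 158 and 201 CPM in controls, with 1 Jun library inside the range of the controls. The log2 difference was 0.34, with an interval of 0.00 to 0.68 (edgeR, adjusted p = 0.32). Egr3 was at 51.9, 61.2 and 60.7 CPM against 57.3, 40.9 and 49.2 CPM, which overlap, with a log2 difference of 0.23 (-0.04 to 0.50, adjusted p = 0.394). Nab1 was at 113, 109 and 109 CPM, just above the 99.8 to 108 CPM of the controls, and its log2 difference of 0.10 did not pass (adjusted p = 0.364). Groups did not overlap for 22.6% of genes in this comparison. Nab2 and Egr2 overlapped their controls (log2 differences of -0.04 and -0.10). Thus 0 of 5 members were called by edgeR or DESeq2, 1 had an unadjusted p under 0.05, and limma on log2(TPM + 1) called 2, Egr1 at 0.54 and Egr3 at 0.36, on a scale where the median of all genes stood 0.14 higher. Of all genes, 0.967% were called by edgeR.

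Compared directly, the libraries with Egr1 and those with Jun differed in Egr1 (log2 difference 2.91 ± 0.151, or 7.5-fold, edgeR adjusted p = 0.000469), the 1 member called against 0.449% of all genes. Egr3 was lower in each library with Egr1 (43.5 to 50.4 CPM) than in any with Jun (51.9 to 61.2 CPM). Its log2 difference of -0.28 did not pass after adjustment (adjusted p = 0.397), and groups did not overlap for 17.7% of genes.

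With the Srebf2 plasmid the corepressors moved in opposite directions. Nab2 was at 118, 115 and 111 CPM with Srebf2 and at 154, 150 and 140 CPM in controls. Each Srebf2 library was below each control, and Nab2 fell by 0.37 on the log2 scale (SE 0.053), 1.29-fold lower (edgeR, adjusted p = 0.000328). Nab1 was at 101, 109 and 113 CPM with Srebf2 and at 86.8, 89.8 and 90.7 CPM in controls. Each Srebf2 library was above each control, and Nab1 rose by 0.28 ± 0.056, or 1.21-fold (adjusted p = 0.00305). Both changes are small next to the 4.19-fold rise of Srebf2 itself, and 17.2% of 12728 genes were called in this comparison, beside 2 of 5 members. When any 1 library was left out, Nab2 stayed between -0.40 and -0.33 and Nab1 between 0.24 and 0.32, all past the threshold. Nab1 did not pass when all 30 libraries shared 1 estimate of spread (0.28, adjusted p = 0.0833).

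The 3 Egr factors were lower on average with Srebf2, without passing the test. Egr3 was at 50.6, 52.6 and 46.8 CPM against 71.5, 52.8 and 57.7 CPM in controls. The groups just missed each other (groups did not overlap for 35.3% of genes), and the log2 difference was -0.28 (-0.51 to -0.05, edgeR adjusted p = 0.0897). DESeq2 called Egr3 (adjusted p = 0.029), and so did edgeR without replicate 2 of the controls (-0.38, adjusted p = 0.0207) and with no filter on low counts. Egr1 was at 241, 247 and 290 CPM against 264, 325 and 381 CPM, which overlap, with a log2 difference of -0.32 (-0.73 to 0.10, adjusted p = 0.261), and it passed without replicate 1 of the controls (-0.44, adjusted p = 0.0176). Egr2 was at 3.04, 2.41 and 3.62 CPM against 2.9, 4 and 4.72 CPM, with a log2 difference of -0.36 (adjusted p = 0.285).

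At the level of transcripts, most of Nab2 in the Srebf2 experiment was Nab2-201 (96.5 ± 1.31 CPM with Srebf2 and 124 ± 4.13 CPM in controls). Its log2 change of -0.36 had an adjusted p of 0.0406 over all transcripts (edgeR), and of 0.0645 to 0.152 when any 1 library was left out. Nab1-201 and Nab1-205 had log2 differences of 0.22 and 1.10, and neither passed (adjusted p = 0.16 and 0.203). Nab2 overlaps Stat6 by 40 bases and Nemp1 by 1668 bases, both on the other strand, and 95.1% of its 31-base words occur in no other gene. The labels do not say whether strand was used in counting.

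In transduced cells, doxycycline went with a lower level of Egr1. No library had doxycycline without the Prrx1 construct, so the drug and the induced Prrx1 cannot be told apart. Egr1 was at 63.4, 63.3 and 55.8 CPM with doxycycline and at 117, 87 and 94.1 CPM without it. Each library with the drug was below each without it (groups did not overlap for 25.4% of genes), and Egr1 fell by 0.71 on the log2 scale (SE 0.117), 1.64-fold lower (edgeR, adjusted p = 0.00387). It is the 1 member called of 4 tested, where 6.19% of 13632 genes were called. Leaving out any 1 library kept the change between -0.79 and -0.58 (adjusted p from 0.000563 to 0.0409), and limma on log2(TPM + 1) did not call it (-0.67, adjusted p = 0.0675). Of its transcripts, Egr1-202 had a log2 difference of -0.83 in counts (adjusted p = 0.177, with 0.151% of 37093 transcripts called), and Egr1-201, at 8.78 ± 3.27 against 6.92 ± 2.8 CPM, one of 0.34 (adjusted p = 0.97).

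The other members did not pass with doxycycline. Egr3 was at 12.4, 13.3 and 14.6 CPM against 16.6, 18.5 and 14.2 CPM, overlapping, with a log2 difference of -0.28 (-0.64 to 0.08, edgeR adjusted p = 0.396). Nab1 was at 291, 330 and 407 CPM against 290, 320 and 350 CPM, with a log2 difference of 0.10 (-0.17 to 0.37) that became -0.05 without replicate 3 of the doxycycline group. Nab2 was at 55.7, 75.2 and 74.2 CPM against 70.1, 89 and 68.5 CPM (-0.14, interval -0.45 to 0.16). Egr2 did not reach the minimum count for testing in these libraries. They were shallower, and Egr2 was also lower in them. With all 30 libraries scaled together, it was at 0.516 ± 0.283 CPM with doxycycline and 0.704 ± 0.549 CPM without it. Means of the transfected groups were 1.84 to 4.01 CPM.

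With the Prrx1 plasmid 0 of 5 members were called by edgeR, DESeq2 or limma, with 0 at an unadjusted p under 0.05, beside 2.98% of 13108 genes called by edgeR. Egr1 was at 263, 327 and 182 CPM against 190, 337 and 405 CPM in controls. The libraries of both groups were scattered over the same range, and the log2 difference was -0.27 with an interval of -1.06 to 0.52. Egr3 (-0.00, interval -0.24 to 0.23), Nab1 (-0.11, interval -0.29 to 0.06), Nab2 (0.05, interval -0.08 to 0.18) and Egr2 (0.00, interval -0.48 to 0.48) all overlapped their controls. The difference between the effect of doxycycline and that of the Prrx1 plasmid was tested in 1 fit of both experiments. It passed for 0 of 5 members by edgeR, DESeq2 or limma, with 0 at an unadjusted p under 0.05 (608 of 15216 genes, or 4%, were called), and for Egr1 it was -0.45 with an interval of -1.36 to 0.46 (edgeR, adjusted p = 0.658).

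With the Snai1 plasmid, again 0 of 5 members were called by edgeR, DESeq2 or limma, 1 had an unadjusted p under 0.05, and 1.62% of 13108 genes were called. Nab2 was at 134, 133 and 140 CPM with Snai1 and at 128, 117 and 118 CPM in controls. Each Snai1 library was above each control, as for 20.5% of genes whose groups did not overlap in either direction, and the log2 difference was 0.17 (0.04 to 0.30, edgeR adjusted p = 0.185). Egr1 was at 196, 283 and 223 CPM against 190, 337 and 405 CPM, overlapping, with a log2 difference of -0.41 (-1.20 to 0.38). Egr3 (0.01), Egr2 (-0.02) and Nab1 (-0.10) overlapped too, and the signs of Egr2 and Egr3 turned when 1 library was left out. Prrx1 and Snai1 libraries compared directly gave 0 of 5 members called by any of the 3 tools, with 0 at an unadjusted p under 0.05, beside 0.252% of genes. Nab2 was lower in each Prrx1 library (120 to 131 CPM) than in any Snai1 library (133 to 140 CPM), as groups were apart for 17.0% of genes, and the log2 difference of -0.12 did not pass (edgeR, adjusted p = 0.971).

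Replicate 1 of the control plasmid in this experiment stood apart. It held the lowest Egr1, Egr3 and Nab1 of the 3 controls (190, 52.9 and 82.6 CPM) and the highest Nab2 (128 CPM). Without it the genes called went from 391 to 2641 with Prrx1 and from 212 to 3058 with Snai1. Nab1 was then lower with Prrx1 (-0.20, edgeR adjusted p = 0.0143) and with Snai1 (-0.19, adjusted p = 0.0173), and Nab2 higher with Snai1 (0.21, adjusted p = 0.00461). Which control libraries represent the cells better was not tested.

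The split of Nab1 between its transcripts separated the experiments more sharply than its level did. Nab1-201 (3874 bases) opens with a first exon of 470 bases, from 52500210 to 52500679, which holds the Egr site matches printed above. Nab1-205 (3640 bases) keeps only the last 91 bases of that exon and adds a noncoding exon of 148 bases from 52499850 to 52499997. The coding exons are the same except for 3 bases at an exon edge (163 against 160 bases). The transcripts share 3387 of their 31-base words, with 439 found only in Nab1-201 and 205 only in Nab1-205, none of which occurs in another gene.

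In the 6 transduced libraries Nab1-205 was at 87.1 to 157 TPM and held 80.2 to 94.4% of the counts of Nab1. In the 24 transfected libraries it was at 1.67 to 8.56 TPM and held 4.72 to 22.1%. Nab1-201 was at 8.71 to 20.8 TPM in transduced and 25.5 to 38.3 TPM in transfected cells, so the higher Nab1 of transduced cells lay wholly in Nab1-205. No library of one kind overlapped the other in either transcript. Within the transduced experiment Nab1-205 was at 130.9 ± 23.24 TPM with doxycycline and 109.7 ± 20.64 TPM without it, which overlap. Nab1-201 was lower in each library with the drug (8.71 to 16.3 TPM) than in any without it (18.1 to 20.8 TPM). Neither transcript passed the test of counts (edgeR, adjusted p = 0.941 for Nab1-205 and 0.574 for Nab1-201). Of the 31-base words of Nab1 as a whole, 93.6% occur in no other gene.

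**Figure D4:**
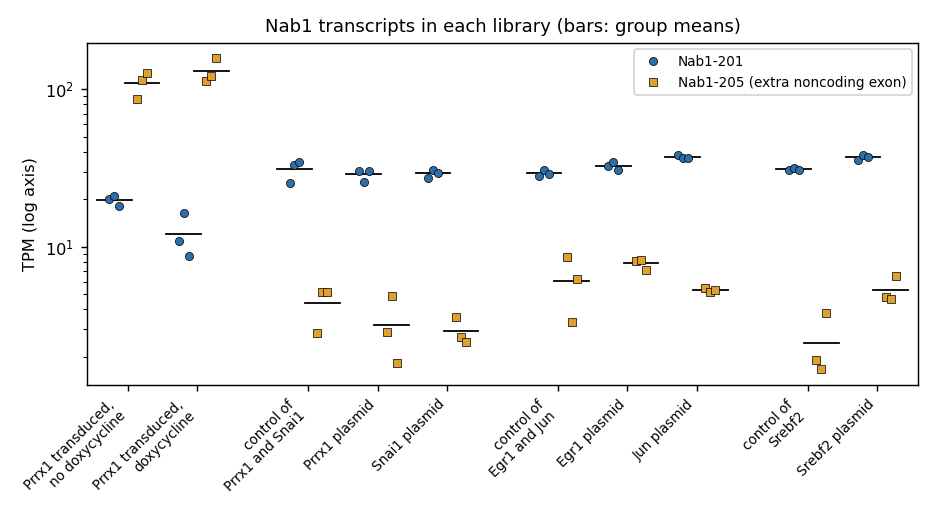
TPM of transcripts Nab1-201 (circles) and Nab1-205 (squares) on a logarithmic axis in each library, by group, with bars for group means. Squares lie above circles in the 6 transduced libraries (87.1 to 157 TPM) and below them in all 24 transfected ones (1.67 to 8.56 TPM).

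Of the other members, Nab2 also separated by its transcripts. Nab2-202 held 30.2 to 58.7% of Nab2 counts in transduced cells and 13.7 to 25.9% in transfected ones, with Nab2-201 holding most of the remainder. These 2 transcripts share 2238 of their 31-base words, with 300 found only in Nab2-201 and 29 only in Nab2-202. Little sequence thus marks Nab2-202, and the error of this split was not measured. Of Egr3, the coding Egr3-204 held 30.1 to 86.4% of counts in transduced and 54.8 to 77.8% in transfected cells, and the intron-retaining Egr3-202 held 13.6 to 60.9% and 7.6 to 29%. These Egr3 ranges overlap, and Egr2 was too scarce for its 7 transcripts to be ranked. As above, no test separates delivery from experiment.

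Genes around the Egr and Nab genes were read from 4 lists, and the counts below are of genes called by edgeR in each comparison. The upstream list held SRF, its ternary complex partners, ERK and ERK feedback genes (15 measured). With the Egr1 plasmid 0 of the 15 were called (median log2 change 0.01, against -0.01 for all genes), and so were 0 with Jun and with Snai1. With Srebf2, 1 was higher and 4 were lower (median -0.16, against 0.00 for all genes), where 17.2% of all genes were called. Srf itself, the factor that binds CArG boxes, was lower (-0.25, adjusted p = 0.00399), as were the ERK phosphatase Dusp5 (-0.27, adjusted p = 0.00804) and the ERK kinase Map2k2 (-0.23, adjusted p = 0.0329). With doxycycline, where 6.19% of all genes were called, 1 was higher and 1 lower (median -0.27): the ternary complex factor Elk3 (0.31, adjusted p = 0.0397) and Dusp5 (-0.84, adjusted p = 0.00861). With the Prrx1 plasmid, where 2.98% of all genes were called, the 1 called was ERK1, Mapk3 (-0.28, adjusted p = 0.0366).

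Other immediate early genes are induced by the same signals as Egr1. With the Egr1 plasmid 0 of 24 were higher and 1 was lower (median 0.02), the AP-1 subunit Fosl1 (-0.41, edgeR adjusted p = 0.00961), whose value is uncertain because 45.5% of its 31-base words are its own. With Srebf2, 0 of 24 were higher and 8 were lower (median -0.20), among them Ier5 (-0.48, adjusted p = 7.35e-05), Jun (-0.35, adjusted p = 0.000578), the antiproliferative Btg2 (-0.51, adjusted p = 0.00102) and Junb (-0.50, adjusted p = 0.00117). With doxycycline 1 of 23 was higher and 8 were lower (median -0.39), including Fosb (-1.60, adjusted p = 0.00229), Ier2 (-0.98, adjusted p = 0.00514) and Jund (-0.80, adjusted p = 0.00861), with Klf4 the 1 higher (1.15, adjusted p = 7.22e-06). In the comparison with doxycycline 3.46% of all genes were called higher and 2.74% lower, and with Srebf2 8.40% higher and 8.84% lower. With Jun, apart from Jun itself, Maff (-0.42, adjusted p = 0.0045) and Fosl1 (-0.36, adjusted p = 0.0117) were lower. With Prrx1, Jund was higher (0.32, adjusted p = 0.0242) and Myc lower (-0.31, adjusted p = 0.0206), and with Snai1 0 of 24 were called. Of all genes, 0.325% were called with Egr1, 0.967% with Jun, 2.98% with Prrx1 and 1.62% with Snai1.

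Downstream, 44 genes that have been reported as Egr1 targets could be tested with the Egr1 plasmid. The 1 called was Sphk1, which makes sphingosine 1-phosphate. It rose from 3.01 ± 0.428 to 7.35 ± 0.536 CPM, a log2 change of 1.29 ± 0.182 (SE, edgeR adjusted p = 0.00961), and 0 were lower. The median over the 44 was 0.04, against -0.01 for all genes, and 0.200% of all genes were called higher. With doxycycline 6 of 41 reported targets were higher and 8 lower (median -0.05), beside 3.46% of all genes called higher and 2.74% lower. The matrix gene Tnc (-0.80, adjusted p = 0.000111) and Vegfa (-0.59, adjusted p = 0.00101) were lower and Nfatc1 was higher (0.76, adjusted p = 0.000811). With Srebf2 0 of 43 were higher and 5 lower, beside 8.40% and 8.84% of all genes. Among the 5 were Timp1 (-0.25, adjusted p = 0.00349), Ccl2 (-0.27, adjusted p = 0.00747) and Vegfa (-0.19, adjusted p = 0.0239). The 5 include Ptp4a1, whose symbol stands for 2 gene models and whose values are uncertain. With Jun, where 0.967% of all genes were called, Fn1 was higher (0.31, adjusted p = 0.0364) and Id3 lower (-1.68, adjusted p = 0.00249). With Prrx1, where 2.98% of all genes were called, Arc (0.77, adjusted p = 0.0259) and Gadd45b (0.35, adjusted p = 0.0309) were higher. With Snai1, where 1.62% were called, 0 of 43 targets passed apart from the other Ptp4a1 model.

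The NuRD complex is the chromatin machinery through which Nab proteins act. Of its 13 measured subunits, 0 were called with Egr1, Jun or Prrx1. The chromatin remodeller Chd3 was higher with doxycycline (0.42, edgeR adjusted p = 0.0244) and the methyl-binding subunit Mbd3 with Snai1 (0.43, adjusted p = 0.0389). With Srebf2, Mbd2 was higher (0.20, adjusted p = 0.0147) and Mta2 lower (-0.15, adjusted p = 0.0345). These 1 of 13 with doxycycline and 2 of 13 with Srebf2 stand beside 6.19% and 17.2% of all genes called, and the 1 of 13 with Snai1 beside 1.62%, so no result about the list is read from these counts. List medians lay between -0.06 and 0.03 in the 6 comparisons.

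**Figure D5:**
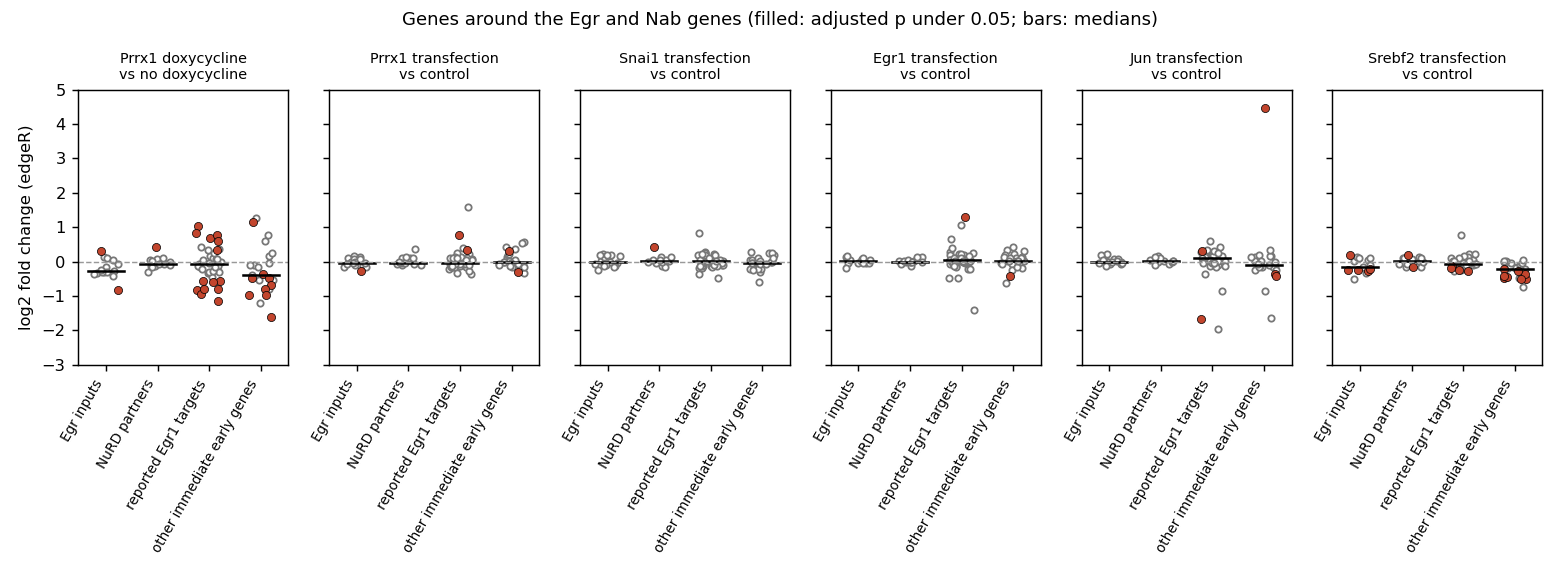
Log2 fold change of every tested gene of the 4 lists (points) in the 6 comparisons against controls, filled where the adjusted p is under 0.05 (edgeR), with bars for list medians; the Egr and Nab genes and Ptp4a1 are left out. With Srebf2 and doxycycline filled points of the other immediate early genes lie mostly below 0 (8 in each), and the point at 4.47 is the delivered Jun.

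Within experiments, the gene whose level ran most like that of Egr1 was Ier2, an immediate early gene, with a Pearson r of 0.87 over the 27 libraries that did not receive Egr1, followed by Lbh at 0.84 and BC005537 at 0.82. These r values are of log2 CPM centred on the mean of each experiment, among 10243 protein-coding genes with at least 5 CPM on average, and are given without a p. The libraries share their experiments and depths, and differences between the treated and control groups of an experiment remain in r. For Egr3 the nearest were Dusp5 (0.80), Tnc (0.76) and the integrin Itga3 (0.75). For Nab1 they were the ubiquitin ligase Nedd4 (0.86), Xpot (0.86, with 77.3% of its 31-base words its own, so uncertain) and the BMP receptor Bmpr1a (0.85), and for Nab2 Hgh1 (0.86), the mitochondrial polymerase Polg (0.85) and Plaur (0.85), the urokinase receptor. Egr2 ran closest to Rps13, Lamtor2 and Rpl35, each at 0.75, of which Rps13 (79.2%) and Rpl35 (11.2%) are uncertain for the same reason. Egr2 itself was under the 5 CPM asked of the other genes. It had only 3 to 22.5 counts in the transduced libraries, so each r with Egr2 is uncertain. Among the members, r was 0.56 for Egr1 with Egr3 and 0.50 for Egr1 with Egr2 over 27 libraries. Over all 30 it was 0.56 for Egr3 with Nab2, -0.49 for Egr2 with Nab1 and -0.24 for Nab1 with Nab2.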

How the data were processed

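The submitters quantified transcripts with kallisto 0.43.0 on build mm10, per the submitters' processing notes, and the authors deposited estimated counts and TPM for 118491 targets in each of 30 libraries. The annotation release and strand are not given in the sources used here. Target names were matched to GENCODE M21 with their version (116816 matched, 1673 did not and were left out), which left 36047 genes. For each gene the estimated counts of its transcripts were added up and rounded. Genes were tested with edgeR 4.0.16 in R 4.3.3 (robust quasi-likelihood F test, two-sided, TMM scaling, filterByExpr at its defaults of 10 counts and a total of 15, Benjamini-Hochberg over all genes tested, threshold 0.05), with groups that share controls in 1 fit and no replicate term. Transcripts were tested in the same way. SE and 95% intervals of log2 changes come from the F statistic.

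Alternatives were a replicate block, RLE scaling, DESeq2 1.42.0, no filter, a stricter filter (at least 5 CPM in 3 libraries), limma 3.58.1 on log2(TPM + 1), keeping genes that average 1 TPM or more, and leaving out each library. Added after seeing the data were 1 fit of all 30 libraries and the transcript alternatives in the Srebf2 experiment. Outside the Egr1 and Jun experiment, transcript fits were also added then. The steps were tested on simulated data.

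The genes and lists were chosen with earlier results of these data known. Named are the 5 genes, the delivered factors, up to 4 called genes per list and comparison with the smallest adjusted p, and per gene the 3 with the highest correlation; some genes that this rule names are not reported here. Genes with under 90% of their 31-base words unique are called uncertain. Replicates of a group differed beyond counting noise in every pair tested. Samples with the same number did not deviate together and were not paired.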

Additional observations from a re-analysis of the deposited data

How the results depend on the processing

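Of 579 alternative values for the log2 changes of the 5 genes, 536 kept direction and side of the threshold, 11 newly passed, 2 no longer passed and 30 turned sign, 0 of them among the 5 changes that passed. The genes called with doxycycline (844) were 1326 with no filter, 162 with limma on TPM, 2705 with all 30 libraries and 334 to 1250 when single libraries were left out. With Prrx1 (391) they were 669 with DESeq2, 615 with no filter and 103 to 2641 with single libraries left out. With Snai1 (212) they were 542, 421, 365 with limma and 46 to 3058. With Egr1 (47) they were 208 with DESeq2, 1170 with limma, 101 with all 30 libraries and 9 to 106 (9 without Egr1 plasmid replicate 2, 106 without replicate 3). With Jun (140) they were 511 with DESeq2, 244 with the stricter filter, 2202 with limma, 58 with all 30 libraries and 27 to 96. With Srebf2 (2194) they were 1016 with limma, 569 with all 30 libraries and 968 to 2317. The share of higher genes moved from 55.8% to 46.2% (no filter), 70.4% (limma) and 36.5% (all 30 libraries) with doxycycline, from 61.7% to 98.5% (limma) with Egr1, from 46.4% to 97.9% (limma) and 31% (all 30 libraries) with Jun, and from 48.7% to 66.5% (limma) with Srebf2. On the limma scale the median of all genes stood at 0.15 with Egr1 and 0.14 with Jun. Members called went to 0 with doxycycline and 2 with Jun under limma, to 1 with Srebf2 in all 30 libraries, and to 0 to 1 with Prrx1 and 0 to 2 with Snai1 when single libraries were left out. The drop of the Egr1-201 share was -27.7 points in TPM. Under limma the sign turned for Nab1 with Prrx1 (0.05) and against Snai1 (0.13), Egr2 with Egr1 (-0.14), against Jun (-0.06) and in doxycycline minus Prrx1 (0.84), Egr3 with Egr1 (0.12) and Nab2 with Jun (0.09). With single libraries left out the ranges that crossed 0 were -0.05 to 0.20 for Nab1 with doxycycline, -0.11 to 0.12 for Egr3 and -0.20 to 0.17 for Egr2 with Snai1, and -0.24 to 0.02 for Egr2 and -0.10 to 0.01 for Nab2 with Jun. With Egr1 they were -0.16 to 0.08 for Egr3, -0.04 to 0.13 for Egr2, -0.02 to 0.07 for Nab1, -0.05 to 0.05 for Nab2 and -0.21 to 0.04 for Egr1-201. Between Prrx1 and Snai1 they were -0.07 to 0.34 for Egr1, -0.17 to 0.20 for Egr2, -0.11 to 0.03 for Egr3 and -0.04 to 0.03 for Nab1, for Egr2 in doxycycline minus Prrx1 -0.99 to 0.37, and for Egr1-202 with Srebf2 -0.18 to 0.12. The cause was not tested.

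Replicate numbers are shared between groups, but deviations of same-numbered libraries correlated at only -0.17 to 0.14, with no comparison in which every pair was above 0.1. With a replicate block the genes called were 20 with Egr1 and 73 with Jun, the members called with Srebf2 were 4 (Egr1 at -0.31, adjusted p = 0.000999, and Egr3 at -0.27, adjusted p = 0.0357, in addition), and the adjusted p of Egr1-201 and Nab2-201 with Srebf2 were 0.109 and 0.147. At its level in the transduced libraries and at their depth, Egr2 was under the minimum count for testing with doxycycline.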
